A study of Mus musculus with 3 samples.

Results

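Transcript counts of 7 genes of the insulin-like growth factor (IGF) system were examined in single cells of the developing mouse kidney. The genes were taken by symbol, without use of their levels, and comprise the ligand *Igf1*, the receptor *Igf1r* and the binding proteins *Igfbp2*, *Igfbp3*, *Igfbp4*, *Igfbp5* and *Igfbp7*. All 7 were found among the 32285 genes of the count matrices. Whole kidneys were taken at E15.5 (E, embryonic day) and profiled by 10x Genomics 3′ single-cell RNA sequencing in 3 libraries, 1 per group. Enl-WT kidneys were *Enl* +/+ with *Wt1* GFPCre/+, and Enl-T1 kidneys were *Enl* flox-T1/+ with *Wt1* GFPCre/+. Enl-T1 TDI-11055 kidneys had the Enl-T1 genotype, after daily oral doses of the compound TDI-11055 to the mothers, at 100 mg/kg, that began on E10.5 and ended on E14.5. The T1 allele carries a short in-frame insertion in the YEATS domain of ENL, a reader of histone acylation encoded by *Mllt1*, and the compound is directed at the acyl-binding pocket of that domain. Every group, the control included, carried GFPCre in 1 *Wt1* allele, which inactivates that allele, and Cre was made where *Wt1* is active, in precursors of the nephron and of stroma. The Enl-T1 kidneys kept 1 unmodified *Enl* allele. Both libraries without TDI-11055 are labelled as untreated, so the compound and the act of dosing cannot be told apart. Embryos were pooled, and no map links cells to embryos.

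IGF1 and IGF2 are secreted growth factors that act through IGF1R, a receptor tyrosine kinase coupled to the PI3K-AKT and MAPK routes of growth and survival. Most IGF in tissue is held by IGF-binding proteins, which keep it from the receptor or release it once they are cut by proteases such as PAPP-A, the product of *Pappa*. IGFBP7 is a related secreted protein that binds IGFs weakly. In the fetal kidney IGF2 is the abundant ligand, and excess IGF2 is a known feature of Wilms tumour.

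Barcodes with 1000 to 6000 genes and at most 10% mitochondrial UMIs were kept, which left 5233 cells of Enl-WT, 4144 of Enl-T1 and 2754 of Enl-T1 TDI-11055. A UMI counts 1 captured transcript molecule. The UMIs of a lineage or class were added up in each library and expressed as CPM, the usual scaling of a count by its total. With 1 library per group, no difference between groups could be tested, and no p-value is given. Brackets hold exact 95% intervals, which cover counting error only and not the spread between embryos or preparations. The libraries also differed in ways that cannot be told apart from the groups. In sets of 3 values, Enl-WT comes first, Enl-T1 next and Enl-T1 TDI-11055 last throughout. The median cell held 5090, 9391 and 16931.5 UMIs, ribosomal protein genes took 15.46%, 25.3% and 26.2% of the UMIs of the median cell, and 26.5%, 73.3% and 35.1% of cells were scored as female. Each pair of libraries shared 5 to 8 kept barcodes. The 3′ counts do not show the T1 insertion, and *Mllt1* itself stood at 27.0, 20.04 and 18.2 CPM in the nephron lineage. Each log2 ratio between libraries is therefore given relative to the median of all genes in that lineage, and a gene was counted as higher or lower where this relative ratio passed 2-fold. Genes whose mean over the libraries was under 5 CPM were not counted. The ratio of Enl-T1 to Enl-WT is called the T1 comparison and that of Enl-T1 TDI-11055 to Enl-T1 the TDI comparison. The median of all genes lay between -0.40 and -0.30 for the T1 comparison and between -0.07 and 0.02 for the TDI comparison. Both comparisons use the Enl-T1 library, so a value that is high or low in that library alone moves them in opposite directions.

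Cells were clustered without the 7 genes, and clusters were named from marker genes. The nephron lineage held 2222, 1303 and 1341 cells, the stroma 871, 1395 and 271, the ureteric epithelium 1737, 1172 and 1021, and the endothelium 394, 256 and 116. Markers of a lineage exceeded, in sum, those of every other lineage in its own cells, except that the 8 erythroid markers, mostly haemoglobin genes, reached 3023 CPM against 2165 CPM of nephron markers in the nephron cells of Enl-T1 TDI-11055. Names of 3 classes held poorly outside Enl-WT. The 46 podocyte-like cells of Enl-T1 had 581 CPM of podocyte markers in sum, with *Podxl* at 2.92 CPM, against sums of 12393 CPM in Enl-WT and 3939 CPM in Enl-T1 TDI-11055. Proximal tubule-like cells had 6334, 563 and 1010 CPM of their markers, with *Cubn* at 0 in Enl-T1. Ureteric mesenchyme-like cells had 3450, 683 and 409 CPM, and the 10 such cells of Enl-T1 TDI-11055 had no UMI of *Acta2*, *Myh11*, *Myocd* or *Actg2*. Values in these classes describe cells that clustered together, and the cells of the 3 libraries may not be of 1 type. Marker sums were also highest in Enl-WT in renin, mesangial and pericyte-like cells (6262, 2808 and 1976 CPM), distal tubule and loop of Henle-like cells (2407, 1035 and 1241 CPM) and self-renewing progenitor-like cells (1386, 503 and 959 CPM). The immune-like class held 9, 18 and 5 cells, too few for its levels to be compared.

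Each of the 7 genes had its own distribution over the lineages. In every library 3 of the 7, *Igf1*, *Igfbp3* and *Igfbp4*, were highest in endothelium and second in stroma, with intervals that did not overlap. Nephron and ureteric epithelium came last, and for *Igfbp3* these last lineages overlapped in each library. The highest lineage of the other 4 genes, *Igf1r*, *Igfbp2*, *Igfbp5* and *Igfbp7*, differed between libraries. Relative to Enl-WT, 8 of the 24 ratios that could be counted in Enl-T1 passed 2-fold, 4 higher and 4 lower, and relative to Enl-T1, 7 of 24 passed it in Enl-T1 TDI-11055, 4 higher and 3 lower. All 8 and all 7 were ratios of binding proteins. The last 7 include endothelial *Igfbp5*, which was near its lowest level over the classes in both libraries. Binding proteins were also most of the countable members. They made up 4 of 5 in nephron, 5 of 7 in stroma, 4 of 5 in ureteric epithelium and 5 of 7 in endothelium. No counted ratio of *Igf1* or *Igf1r* passed the fold on this scale. Without centring on the median, nephron *Igf1r* passed it for the T1 comparison (-1.17) and endothelial *Igf1* for the TDI comparison (-1.03).

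**Figure D1:**
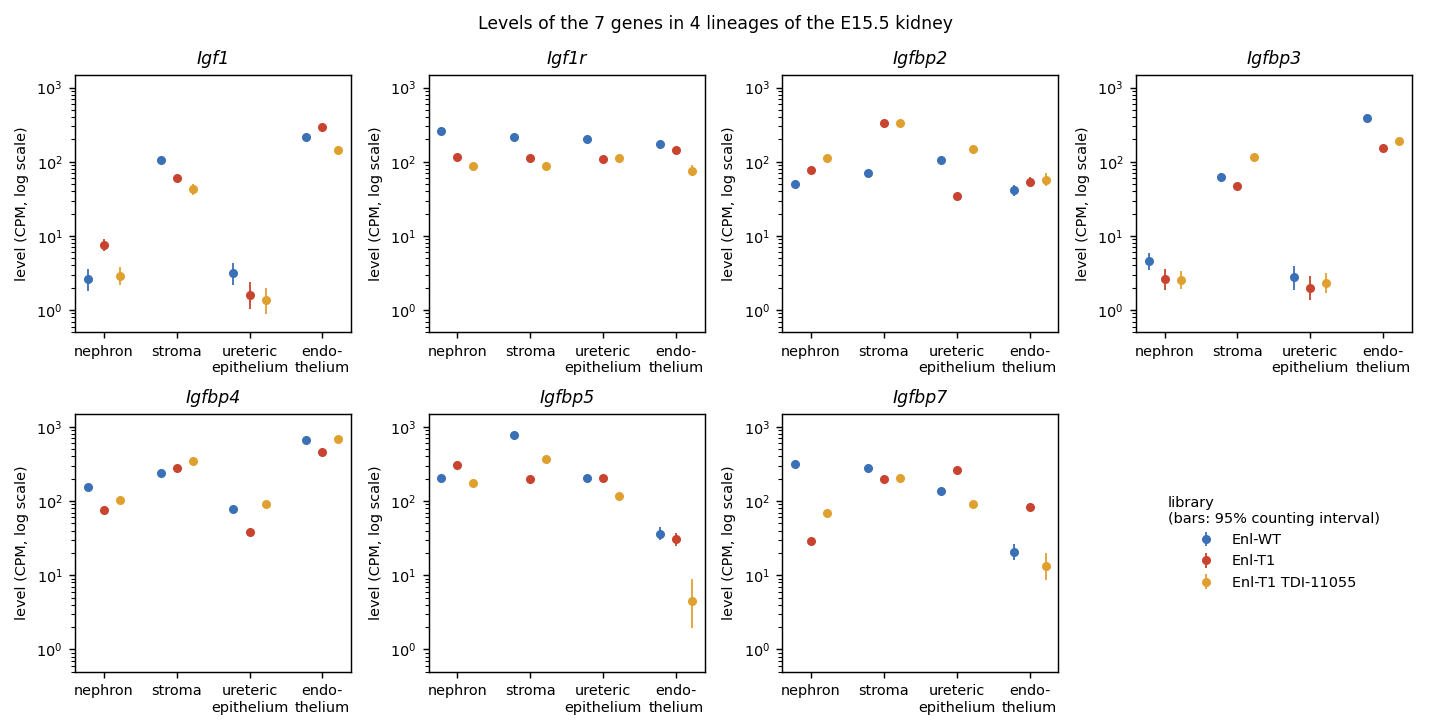
Level of each gene (CPM, log scale) in the nephron, stroma, ureteric epithelium and endothelium of the 3 libraries. Points are sums over the cells of 1 library and bars are exact 95% counting intervals. *Igf1* and *Igfbp3* lie between 1.37 and 7.51 CPM in nephron and ureteric epithelium and above 40 CPM in stroma and endothelium, and *Igf1r* lies between 75.5 and 258 CPM everywhere.

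By lineage, the counts were read against all genes. In nephron, 2 of 5 countable members passed 2-fold for the T1 comparison, where 13.5% of all genes did, and 1 of 5 for the TDI comparison, where 3.76% did. In stroma the members numbered 2 of 7 against 8.48% of genes, and 1 of 7 against 6.77%. In ureteric epithelium they numbered 2 of 5 against 6.15% of genes, and 3 of 5 against 5.66%. In endothelium they numbered 2 of 7 against 7.25% of genes, and 2 of 7 against 8.36%. The last 2 include *Igfbp5*, for which endothelium was the lowest named class of both libraries, the immune-like one aside. The median size of the members' relative log2 ratio, sign set aside, was 1.00, 0.52, 0.75 and 0.70 in nephron, stroma, ureteric epithelium and endothelium for the T1 comparison, where that of all genes was 0.38, 0.36, 0.32 and 0.34. For the TDI comparison the members' medians were 0.53, 0.40, 1.22 and 0.87, and those of all genes were 0.27, 0.33, 0.26 and 0.37. With so few members these counts only describe the list.

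**Figure D2:**
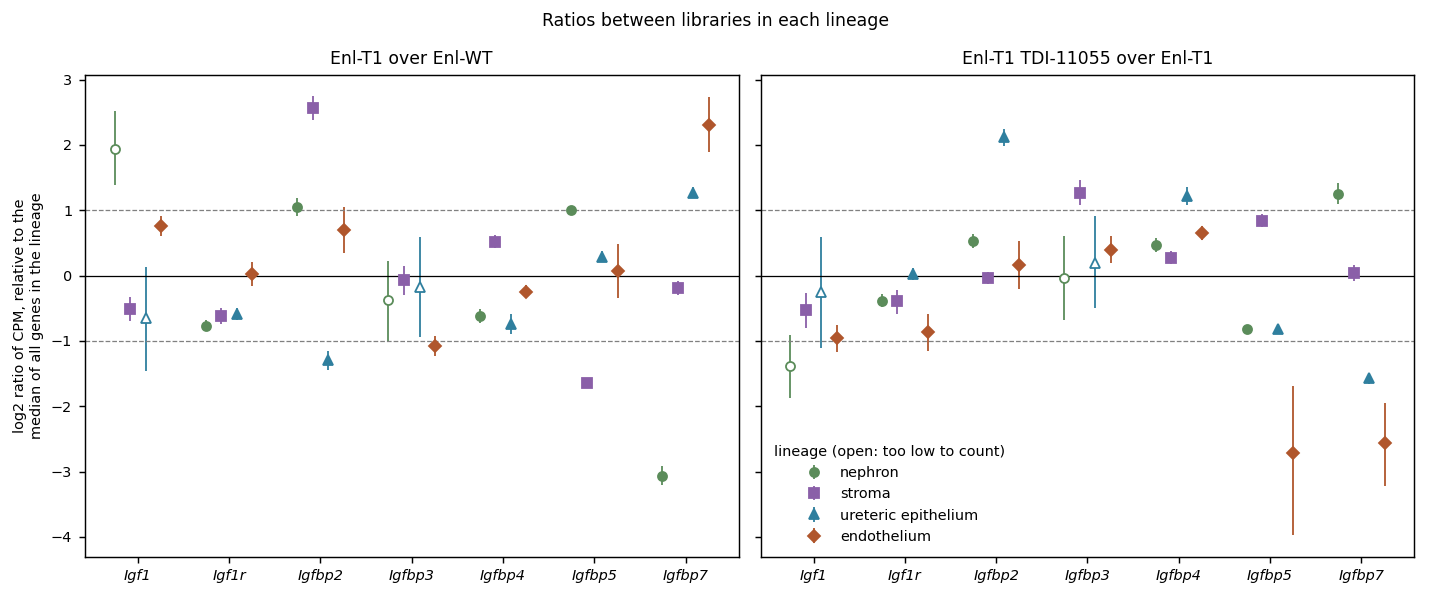
Relative log2 ratio of each gene in each lineage for the T1 comparison (left) and the TDI comparison (right), with exact 95% counting intervals. Dashed lines mark 2-fold, and open symbols are ratios too low to count. *Igfbp2* in stroma (2.56) and *Igfbp7* in nephron (-3.06) stand farthest from 0 on the left.

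*Igf1* (chromosome 10, 87858265 to 87937042, plus strand, GRCm38) encodes the IGF1 ligand. In endothelium it stood at 216 [199, 233], 294 [276, 314] and 144 [127, 163] CPM, and in stroma at 106 [96.5, 117], 60.6 [56.1, 65.3] and 42.5 [35.9, 49.9] CPM. Endothelial *Igf1* was thus highest in Enl-T1, while stromal *Igf1* was highest in Enl-WT, and none of these intervals overlapped within a lineage. The relative log2 ratios were 0.76 in endothelium and -0.51 in stroma for the T1 comparison, and -0.96 and -0.53 for the TDI comparison. Between Enl-T1 TDI-11055 and Enl-WT the stromal value was -1.05. In nephron the level was 2.60, 7.51 and 2.89 CPM and in ureteric epithelium 3.14, 1.62 and 1.37 CPM, below the level that was counted in either. The nephron values were 1.94 [1.38, 2.53] and -1.38 [-1.88, -0.90], from 36, 108 and 55 UMIs.

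Within the stroma *Igf1* was unevenly spread. Foxd1 stroma-like cells, the cortical stroma marked by *Foxd1*, had 123 [108, 139], 75.9 [68.4, 84.1] and 13.9 [9.50, 19.6] CPM, so the level in Enl-T1 TDI-11055 was far below both others, with a relative log2 ratio over Enl-T1 of -2.43 [-3.00, -1.90]. One subcluster of these cells, led by *Egfl6*, *Npy* and *Grp*, held 133 of 249, 180 of 366 and 6 of 32 *Igf1* UMIs of the class, at 1058 [886, 1254], 268 [230, 310] and 29.2 [10.7, 63.6] CPM in 36, 100 and 21 cells. *Igf1* is itself among the 10 leading genes of that subcluster, although it was left out of the clustering. General stroma-like cells had 160 [119, 209], 128 [111, 148] and 227 [183, 278] CPM. There Enl-T1 TDI-11055 was highest, from 93 UMIs in 28 cells, while the intervals of Enl-WT and Enl-T1 overlapped. Medullary stroma-like cells had 2.04, 2.15 and 3.0 CPM. Ureteric mesenchyme-like cells had 251 [185, 334] CPM in Enl-WT, 21.2 [14.8, 29.3] CPM in Enl-T1 and no UMI in the 10 cells of Enl-T1 TDI-11055. In these 3 libraries the markers of that class were also far apart, as given above, and their part in the result was not tested. Proximal tubule-like cells had 5.07, 72.4 and 22.01 CPM of *Igf1*, but the Enl-T1 value rested on 26 UMIs in 7 of 31 cells.

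*Igf1r* (chromosome 7, 67952827 to 68233668, plus strand) encodes the receptor and was the most evenly spread of the 7. It stood at 258 [250, 267], 115 [109, 120] and 88.3 [84.1, 92.6] CPM in nephron and at 215 [201, 230], 114 [108, 120] and 87.8 [78.3, 98.3] CPM in stroma. It stood at 204 [196, 212], 110 [105, 116] and 113 [108, 118] CPM in ureteric epithelium and at 176 [161, 192], 144 [131, 158] and 75.5 [63.3, 89.3] CPM in endothelium. The ratio of the highest to the lowest lineage was 1.47, 1.31 and 1.5, and which lineage came first changed from nephron to endothelium to ureteric epithelium. In all 4 lineages Enl-WT was highest, and the intervals of Enl-WT and Enl-T1 did not overlap. Relative to all genes, the log2 ratios for the T1 comparison were -0.77, -0.62, -0.58 and 0.03 in nephron, stroma, ureteric epithelium and endothelium, and those for the TDI comparison were -0.38, -0.40, 0.02 and -0.87. Between Enl-T1 TDI-11055 and Enl-WT they were -1.12, -1.02, -0.57 and -0.85.

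The ratios of *Igf1r* were also set beside genes of like length. Its merged exons span 16791 bases, at the 99.0th percentile of annotated genes. In every lineage, genes with long exons had lower ratios than genes with short exons, with Spearman correlations across genes of -0.51 to -0.35 for the T1 comparison and of -0.45 to -0.23 for the TDI comparison. These are across genes of the same libraries and carry no test. The median of the longest 10% of genes lay at -0.40, -0.36, -0.37 and -0.24 in nephron, stroma, ureteric epithelium and endothelium for the T1 comparison. Taken relative to those genes, *Igf1r* moved to -0.37, -0.26, -0.22 and 0.27, and for the TDI comparison to -0.05, -0.06, 0.23 and -0.43. For the T1 comparison the value moved toward 0 in nephron, stroma and ureteric epithelium and away from 0 in endothelium. Whether length has a part in the receptor's ratios was not tested.

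**Figure D3:**
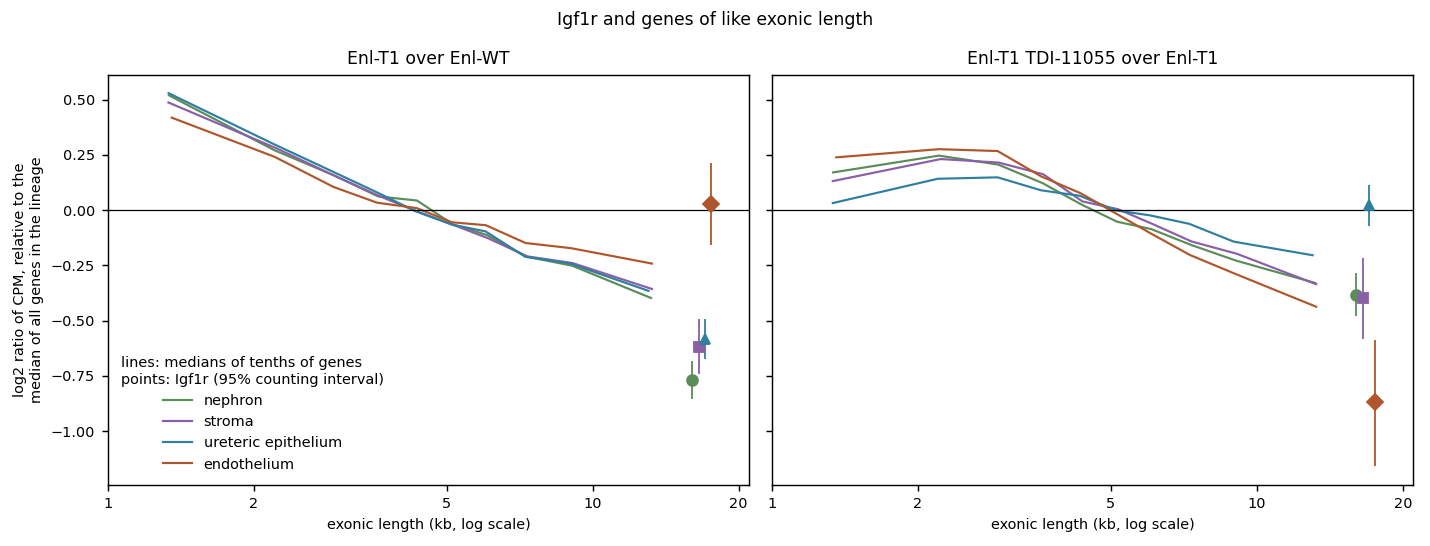
Relative log2 ratio against exonic length (kb, log scale) for the 2 comparisons. Lines join the medians of 10 groups of genes of rising length in each lineage, and points are *Igf1r* with exact 95% counting intervals, set slightly apart sideways for legibility. On the left, lines fall with length in all lineages, to -0.40 in nephron for the longest 10%, where *Igf1r* is at -0.77. On the right, they rise over the shortest groups and then fall.

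Urothelium lines the urinary tract. Among named classes other than the immune-like one, *Igf1r* was lowest in urothelium-like cells of each library, at 84.9, 65.5 and 44.0 CPM. Podocyte-like cells, the filtration epithelium, were highest in Enl-WT at 371 [343, 402] CPM and in Enl-T1 TDI-11055 at 263 [219, 312] CPM, but stood at 120 [85.9, 162] CPM in Enl-T1, where the podocyte markers were nearly absent. Ureteric tip-like cells had 293, 186 and 146 CPM, above trunk and collecting duct-like cells at 199, 116 and 97.8 CPM in each library.

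*Igfbp2* (chromosome 1, 72824503 to 72852474, plus strand) encodes a binding protein common in fetal tissue. Its stromal level was 69.6 [61.7, 78.2] CPM in Enl-WT, 335 [324, 346] CPM in Enl-T1 and 331 [312, 351] CPM in Enl-T1 TDI-11055. Both libraries of the Enl-T1 genotype thus lay far above Enl-WT and overlapped each other. The relative log2 ratio was 2.56 [2.39, 2.74] for the T1 comparison and -0.04 [-0.13, 0.06] for the TDI comparison. Enl-T1 exceeded Enl-WT in every stromal class. The levels were 70.5, 393 and 371 CPM in Foxd1 stroma-like, 95.1, 231 and 371 CPM in general stroma-like and 122, 170 and 216 CPM in medullary stroma-like cells. Renin, mesangial and pericyte-like cells had 24.3, 149 and 112 CPM, and ureteric mesenchyme-like cells 48.1, 562.1 and 307 CPM. The difference was smallest in medullary stroma-like cells, with a relative log2 ratio of 0.81 [0.42, 1.23], under 2-fold. In the *Egfl6* subcluster of Foxd1 stroma-like cells, where *Igf1* was lower outside Enl-WT, *Igfbp2* stood at 151 [91.0, 236], 956 [884, 1033] and 1733 [1557, 1922] CPM.

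The share of stromal cells with an *Igfbp2* UMI was 11.4% [9.36, 13.8], 32.6% [30.2, 35.1] and 34.4% [28.8, 40.4] after each cell was thinned to 2000 UMIs. Urothelium-like cells, among the lowest for this gene, had 0%, 1.2% and 3.77% after thinning. Unthinned, stromal cells reached 20.8%, 57.0% and 68.6% with 4037, 6924 and 13314 UMIs in the median cell, and the urothelium-like shares 5.43%, 3.60% and 13.2% at 5140, 12280 and 18321 UMIs.

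Epithelial *Igfbp2* followed another order. In ureteric epithelium it was 104 [98.4, 111], 34.4 [31.6, 37.5] and 151 [145, 156] CPM, lowest in Enl-T1, with relative log2 ratios of -1.30 [-1.45, -1.15] for the T1 comparison and 2.12 [1.98, 2.25] for the TDI comparison. Trunk and collecting duct-like cells had 117, 31.6 and 135 CPM and tip-like cells 145, 89.2 and 199 CPM, so the order was the same in both. In male cells alone the first ratio was -0.72, under 2-fold. In nephron *Igfbp2* was 49.7 [46.0, 53.5], 77.7 [73.2, 82.4] and 112 [108, 117] CPM, with relative log2 ratios of 1.05 [0.91, 1.19] and 0.53 [0.42, 0.63]. Self-renewing progenitor-like cells (NP1-like, marked by *Six2* and *Cited1*) had 95.4, 79.0 and 152 CPM. With every library weighted to 1 makeup of subclusters the T1 comparison ratio in nephron was 0.39. Taken relative to genes of like exonic length, that ratio was 0.78, also under 2-fold.

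**Figure D4:**
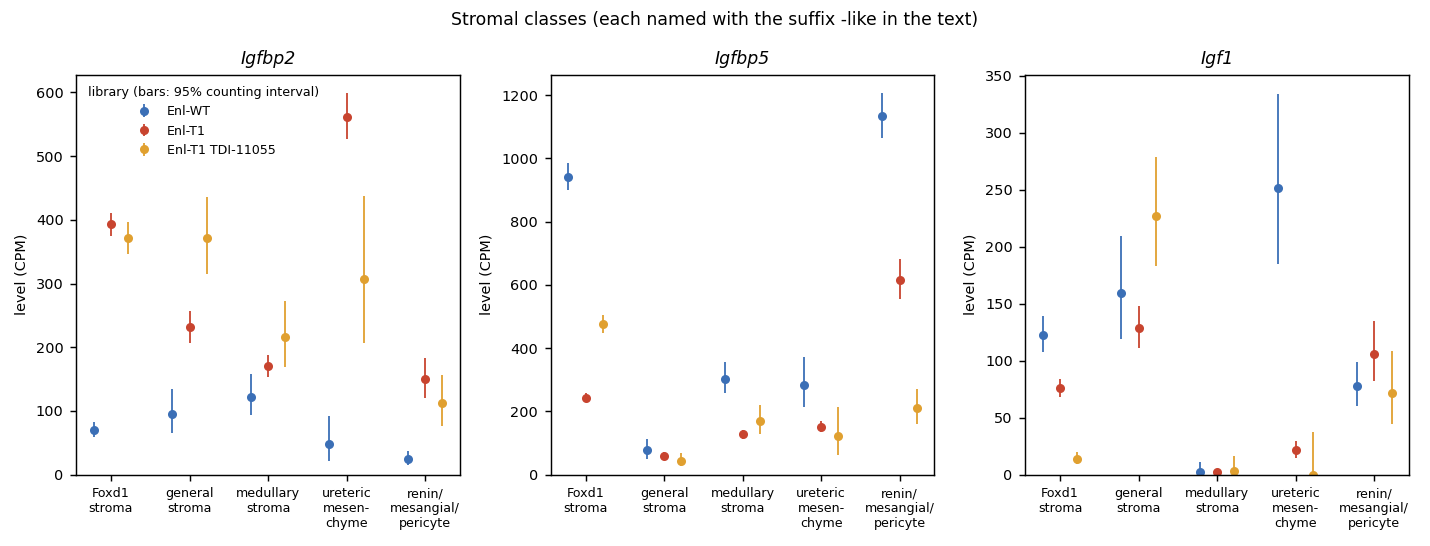
Levels (CPM) of *Igfbp2*, *Igfbp5* and *Igf1* in 5 stromal classes of the 3 libraries, with exact 95% counting intervals. *Igfbp2* of Enl-T1 lies above that of Enl-WT in each class and *Igfbp5* below it, while *Igf1* in ureteric mesenchyme-like cells goes from 251 CPM in Enl-WT to 21.2 CPM in Enl-T1.

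*Igfbp5* (chromosome 1, 72857932 to 72874884, minus strand) lies 5457 bases from *Igfbp2* with the 3′ ends of the 2 genes facing, and it encodes a binding protein that associates with extracellular matrix. Its stromal level ran opposite to *Igfbp2*, at 770 [744, 798] CPM in Enl-WT, 200 [192, 209] CPM in Enl-T1 and 364 [344, 385] CPM in Enl-T1 TDI-11055. No intervals overlapped, and the relative log2 ratios were -1.65 [-1.73, -1.57] and 0.84 [0.74, 0.94]. Foxd1 stroma-like cells had 941, 243 and 476 CPM, with Enl-T1 TDI-11055 between the others. Renin, mesangial and pericyte-like cells had 1133, 617 and 210 CPM, so that there Enl-T1 TDI-11055, with 16 cells, was lowest. The marker sum of that class stood in the same order, as given above, as did *Ren1* (2843, 662 and 108 CPM) and *Rgs5* (1099, 1070 and 834 CPM). The other markers did not. *Akr1b7* (1034, 132 and 169 CPM), *Notch3*, *Cspg4*, *Mcam* and *Art3* were lowest in Enl-T1, and *Pdgfrb* was highest there (454, 493 and 302 CPM). The part of these markers in the result was not tested. Medullary stroma-like cells had 303, 127 and 171 CPM, and general stroma-like cells 76.7, 58.8 and 44.0 CPM.

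In nephron *Igfbp5* was highest in Enl-T1, at 203 [195, 211], 306 [297, 315] and 175 [169, 181] CPM. The relative log2 ratio for the T1 comparison was just under 2-fold at 1.00 [0.93, 1.07], and 0.36 with the subclusters weighted alike. NP1-like cells, by contrast, had 392, 323 and 238 CPM. Cells of 1 unnamed nephron cluster, led by *Akap12*, *Meg3*, *Tagln* and *Cryab*, numbered 40, 233 and 13 and had 194 [143, 256], 508 [477, 541] and 269 [199, 356] CPM. Podocyte-like cells had 33.6, 327 and 47.2 CPM, with the Enl-T1 cells nearly without podocyte markers. In ureteric epithelium the level was 205, 204 and 117 CPM, and urothelium-like cells had 1013 [943, 1088], 542 [518, 566] and 544 [498, 592] CPM, the highest epithelial class in every library. Endothelial *Igfbp5* was 36.3, 30.8 and 4.47 CPM, the last resting on 8 UMIs, and 76.5% of the 98 UMIs in Enl-T1 came from 10 cells. Its relative log2 ratio of -2.72 [-3.97, -1.68] for the TDI comparison was -0.42 after thinning to 2000 UMIs per cell.

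*Igfbp7* (chromosome 5, 77349240 to 77408041, minus strand) differed most in the nephron. Its level there was 318 [308, 327] CPM in Enl-WT, 28.7 [26.0, 31.6] CPM in Enl-T1 and 68.8 [65.1, 72.6] CPM in Enl-T1 TDI-11055. The relative log2 ratios were -3.06 [-3.21, -2.92] for the T1 comparison and 1.25 [1.09, 1.42] for the TDI comparison, so the treated library lay between the others and nearer to Enl-T1. With every library weighted to 1 makeup of nephron subclusters, the first ratio was -1.65.

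Among nephron classes of Enl-WT, *Igfbp7* was lowest in NP1-like and highest in podocyte-like cells. NP1-like cells had 7.21 [4.99, 10.1], 7.87 [6.17, 9.90] and 5.25 [4.04, 6.70] CPM, overlapping in all 3 libraries. Committed progenitor-like cells (NP2-like, marked by *Wnt4* and *Lhx1*) had 137 [119, 156], 33.6 [21.5, 50.02] and 103 [88.3, 119] CPM, in 210, 52 and 191 cells. The marker list of this class also covers the pretubular aggregate and the renal vesicle, an epithelial stage. The class therefore need not match an NP2 class defined otherwise. Proximal tubule-like cells had 693 [655, 733], 270 [219, 330] and 417 [374, 464] CPM, and podocyte-like cells 1460.1 [1403, 1519], 163 [123, 212] and 852 [772, 938] CPM. In these last 3 classes Enl-T1 was lowest and Enl-T1 TDI-11055 between the others, although for NP2-like cells its interval overlapped that of Enl-WT. Distal tubule and loop of Henle-like cells had 85.4 [76.4, 95.2], 66.0 [53.2, 81.0] and 88.4 [78.6, 99.2] CPM, with overlapping intervals. The markers of podocyte-like and proximal tubule-like cells moved in the same order as *Igfbp7*, and their part in the result was not tested. NP2-like markers summed to 3539, 3374 and 2741 CPM, of which *Wnt4* had 688, 894 and 602 CPM. Of the other NP2-like markers, *Cdh6* (425, 95.3 and 100.0 CPM), *Jag1* (328, 148 and 105 CPM), *Pax8*, *Dll1* and *Bmper* were highest in Enl-WT. *Ccnd1*, like *Wnt4*, was highest in Enl-T1, and *Lhx1* was nearly equal in Enl-WT and Enl-T1. *Fgf8* and *Npy* were lowest in Enl-WT and highest in Enl-T1 TDI-11055. The part of the NP2-like markers was not tested either.

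In podocyte-like cells thinned to 2000 UMIs, 87.5% [82.3, 91.6], 23.9% [12.6, 38.8] and 67.7% [48.6, 83.3] had an *Igfbp7* UMI, from 216, 46 and 31 cells. NP1-like cells, the lowest nephron class, had 1.68%, 1.58% and 1.10%. Unthinned, podocyte-like cells reached 92.4%, 52.2% and 90.3% with 5725, 7166 and 14507 UMIs in the median cell, and 3.91%, 7.63% and 6.69% in NP1-like cells at 5084, 11411.5 and 18543 UMIs. The unnamed nephron cluster led by *Akap12* had 637 [542, 743], 32.4 [25.0, 41.4] and 71.3 [38.0, 122] CPM of *Igfbp7*.

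**Figure D5:**
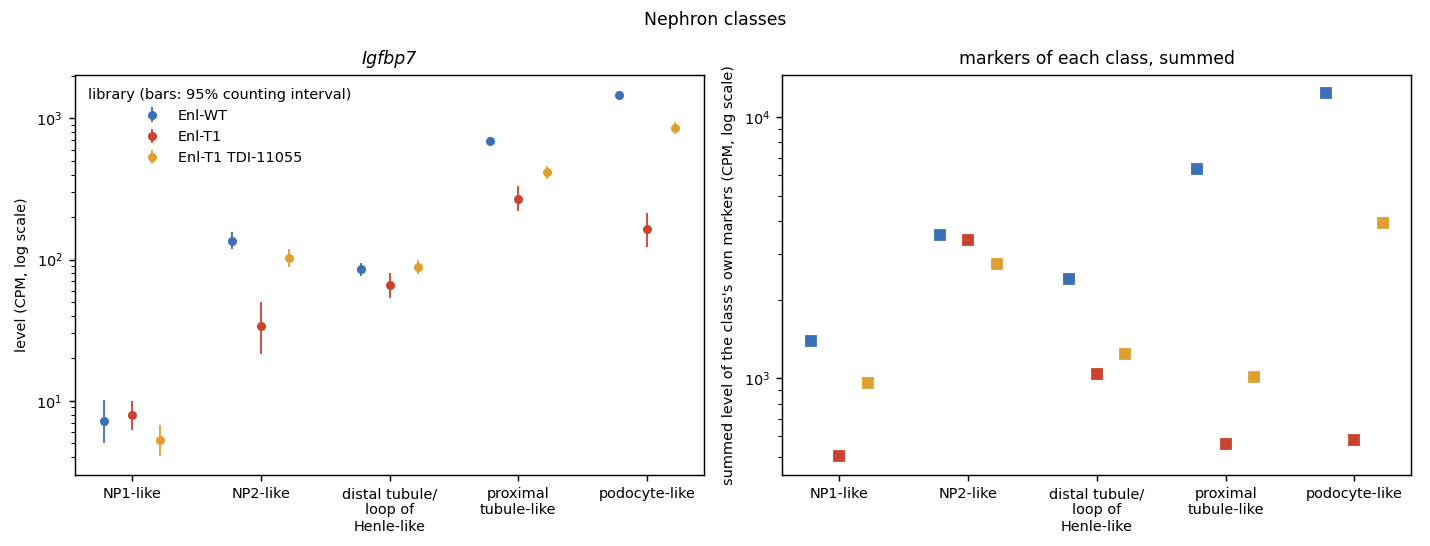
Left, *Igfbp7* (CPM, log scale) in 5 nephron classes of the 3 libraries with exact 95% counting intervals. Right, the summed level of each class's own markers (CPM, log scale). In podocyte-like and proximal tubule-like cells both *Igfbp7* and the markers are lowest in Enl-T1. In NP2-like cells *Igfbp7* is lowest in Enl-T1, at 33.6 CPM, and the marker sum in Enl-T1 TDI-11055, at 2741 CPM.

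Outside the nephron *Igfbp7* took other orders. In ureteric epithelium it was 136 [129, 143], 266 [258, 274] and 90.4 [86.1, 94.7] CPM, highest in Enl-T1, with relative log2 ratios of 1.27 [1.19, 1.36] and -1.57 [-1.65, -1.49]. Urothelium-like cells had 549, 578 and 496 CPM, with relative log2 ratios of 0.39 and -0.32, and numbered 129, 250 and 53 cells. Trunk and collecting duct-like cells had 99.8, 141 and 87.1 CPM. With the subclusters weighted alike the second ratio was -0.58, and in male cells alone the first was 0.43. Taken relative to genes of like exonic length, the first was 0.74, under 2-fold. Stromal *Igfbp7* was 276, 196 and 204 CPM, with relative log2 ratios of -0.19 and 0.04. In endothelium it was 20.8 [15.8, 26.7], 82.7 [73.0, 93.3] and 13.4 [8.60, 19.97] CPM, with relative log2 ratios of 2.31 and -2.56. These rested on 60, 263 and 24 UMIs in 34, 82 and 12 cells. Stromal markers summed to 780, 683 and 333 CPM in the same endothelial cells, and their part in the result was not tested.

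*Igfbp3* (chromosome 11, 7206086 to 7213923, minus strand, 3539 bases from *Igfbp1*) encodes the main IGF carrier of adult plasma. It was highest in endothelium, at 395 [372, 418], 151 [138, 165] and 190 [170, 211] CPM. Enl-WT lay above both libraries of the Enl-T1 genotype. The relative log2 ratio was -1.08 [-1.23, -0.92] for the T1 comparison and 0.40 [0.19, 0.60] for the TDI comparison. In stroma the level was 61.5 [54.2, 69.6], 47.7 [43.7, 51.9] and 117 [105, 128] CPM, highest in Enl-T1 TDI-11055, with relative log2 ratios of -0.07 and 1.27 [1.08, 1.46]. Foxd1 stroma-like cells had 90.2, 68.5 and 156 CPM and general stroma-like cells 153, 74.3 and 90.4 CPM, so the higher level in Enl-T1 TDI-11055 was not seen in general stroma-like cells. Foxd1 stroma-like cells made up 409 of 871, 502 of 1395 and 187 of 271 stromal cells, and with the subclusters weighted alike the second stromal ratio was 0.76. Nephron and ureteric epithelium held 2.01 to 4.54 CPM and were not counted.

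*Igfbp4* (chromosome 11, 99041244 to 99054392, plus strand) encodes a substrate of PAPP-A. Endothelium had 673 [643, 704], 457 [434, 481] and 688 [650, 727] CPM and stroma 240 [225, 255], 280 [270, 290] and 343 [324, 363] CPM. Endothelial levels of Enl-WT and Enl-T1 TDI-11055 overlapped and Enl-T1 lay below, and no ratio passed 2-fold in either lineage. Nephron had 153, 75.3 and 105 CPM, with relative log2 ratios of -0.61 and 0.47. Within it, proximal tubule-like cells had 401 [372, 432], 103 [72.6, 142] and 253 [220, 290] CPM, again with their markers lowest in Enl-T1. Ureteric epithelium had 79.0 [73.9, 84.4], 38.3 [35.2, 41.5] and 90.0 [85.8, 94.4] CPM, with relative log2 ratios of -0.75 and 1.22 [1.08, 1.36]. With the subclusters weighted alike the last ratio was 0.57. Urothelium-like cells were lowest of the named classes in every library, the immune-like one set aside, at 13.3, 2.21 and 5.12 CPM.

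Free RNA from broken cells enters droplets and adds UMIs to cells that do not make a gene. As a gauge of it, the lowest named class for each gene and library, the immune-like class left out for its few cells, held 0 to 2.12 CPM for *Igf1* and *Igfbp3*, 3.87 to 8.19 CPM for *Igfbp2*, 5.25 to 7.87 CPM for *Igfbp7*, 2.21 to 13.3 CPM for *Igfbp4*, 4.47 to 33.6 CPM for *Igfbp5* and 44.0 to 84.9 CPM for *Igf1r*. Endothelium was itself the lowest of these classes for *Igfbp5* in Enl-T1 and Enl-T1 TDI-11055, so its ratio for the TDI comparison is not read as a difference in expression, although it is among the 7 past the fold. Levels this low are not read as expression, save for *Igf1r*. That gene was spread over all lineages, so its lowest class cannot tell free RNA from expression.

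The remaining genes of the pathway were taken as a list of 26, of which 18 could be counted in nephron, 18 in stroma, 17 in ureteric epithelium and 16 in endothelium. For the T1 comparison, 1 passed 2-fold upward and 4 downward in nephron, 0 and 2 in stroma, and none in ureteric epithelium or endothelium, by size alone and without a test. The share of all genes past it either way was 13.5%, 8.48%, 6.15% and 7.25%, as above. The median relative log2 ratios of the list were -0.40, -0.23, -0.38 and -0.18. Unlike those of the members, ratios of the list were not set beside genes of like exonic length, for either comparison. *Igf2r*, the receptor that clears IGF2, was lower in nephron (116, 41.5 and 32.2 CPM) and in stroma (223, 85.5 and 68.3 CPM), with relative log2 ratios of -1.08 and -1.09. *Pik3r1*, a regulatory subunit of PI3K, was the only one higher, at 61.9, 133 and 38.4 CPM in nephron. The others lower in nephron were *Pappa* (-1.78), the insulin receptor substrate *Irs2* (-1.03) and the transcription factor *Foxo1* (-1.04), and in stroma *Igfbp6* (-1.60), a binding protein that prefers IGF2. *Igf2* itself stood at 271, 301 and 252 CPM in nephron, 596, 252 and 310 CPM in stroma, 306, 173 and 131 CPM in ureteric epithelium and 974, 550 and 422 CPM in endothelium, and passed 2-fold in none for either comparison. Without centring, the stromal log2 ratio of *Igf2* for the T1 comparison was -1.24.

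For the TDI comparison, none of the list passed 2-fold upward, and 2, 1, 1 and 3 passed it downward in nephron, stroma, ureteric epithelium and endothelium. Of all genes 3.76%, 6.77%, 5.66% and 8.36% passed it either way, so that 1 of 18 in stroma and 1 of 17 in ureteric epithelium are near the share of all genes. The medians were -0.27, -0.24, -0.18 and -0.48. *Pappa* was lower in nephron (51.4, 11.3 and 4.68 CPM), stroma (77.4, 50.5 and 20.96 CPM) and ureteric epithelium (13.6, 13.5 and 3.37 CPM), with relative log2 ratios of -1.27, -1.29 and -2.01. *Pik3r1* in nephron had a ratio of -1.80. In endothelium the insulin receptor *Insr* (-1.14), the PI3K catalytic subunit *Pik3ca* (-1.03) and the protease *Htra1* (-1.91) were lower, the last resting on 3 UMIs in Enl-T1 TDI-11055.

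Genes whose levels followed each member were sought over 42 points, the 15 named classes in 3 libraries with points of too few UMIs left out, among 10337 genes. The measure was the Pearson correlation of log2(CPM + 5). The points share libraries and cell types, so the values are descriptive and carry no p. The 3 nearest genes were *Tcf15* (r = 0.88), *Ldb2* and *Arhgap31* for *Igfbp3*, *Rgs7bp* (0.82), *Klf2* and *Mef2c* for *Igf1*, and *Nhlrc2* (0.83), *Ccar1* and *Clock* for *Igf1r*. They were *Nsg1* (0.82), *Mfap2* and *Fbln1* for *Igfbp2*, *Tmem136* (0.74), *Pawr* and *Tpm1* for *Igfbp7*, and *Stk39* (0.64), *Meg3* and *Vgll3* for *Igfbp5*. Among the members themselves, *Igf1* and *Igfbp3* had the highest correlation (0.69), followed by *Igfbp3* and *Igfbp4* (0.67), and *Igfbp2* and *Igfbp5*, neighbours on chromosome 1, had 0.03.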

How the data were processed

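Single-cell RNA sequencing (10x Genomics 3′, version 3.1 chemistry) was performed on dissociated E15.5 mouse kidneys, with a red blood cell lysis step, in 3 libraries of 1 group each. The authors aligned reads to mm10 and deposited raw UMI counts per gene and barcode (Cell Ranger 6.1.2, per the file headers); the annotation release is not given in the sources used here. The deposited matrices held 7186, 6575 and 6453 barcodes and 37221435, 63336586 and 76619303 UMIs, for Enl-WT, then Enl-T1, then Enl-T1 TDI-11055. Depth was thus greatest in the library with the fewest cells, and counting intervals are widest in small classes.

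Barcodes with 1000 to 6000 genes and at most 10% mitochondrial UMIs were kept, and doublets were left in. Libraries were integrated and clustered with Seurat 5.3.0 (R 4.3.3) on 2000 variable genes, first over all cells and then within each lineage, without 296 genes that include the 7 members and the pathway list. Clusters were named from fixed marker lists, where at least 3 markers were detected. Unnamed clusters stayed in their lineage. Clusters led by haemoglobin genes also stayed there unnamed, a rule set after seeing the data, because their median haemoglobin share was under 20% of UMIs. Cells above that share were too few to serve as the class lacking a gene, as had been planned, and the lowest named class took their place, the immune-like class (9, 18 and 5 cells) left out. *Igf1* in nephron and ureteric epithelium and *Igfbp3* in the same lineages were under the level that was counted. A cell was scored as female if it had *Xist* but none of the Y-linked genes.

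UMIs were summed per lineage or class and library and scaled to CPM with Python 3.11.15, numpy 2.4.6 and scipy 1.17.1. Intervals are exact Poisson (CPM), exact binomial (ratios) and Clopper-Pearson (shares) at 95%, and UMIs of 1 cell are not independent. For shares, each cell was thinned to 2000 UMIs and shallower cells were left out. Log2 ratios were centred on the median of all genes with at least 5 CPM, and 2-fold was the limit for a call. The step was tested on simulated counts with 200 changed genes. Positions and exon lengths are from GENCODE M21 (GRCm38), which may not be the annotation used for counting, and it is matched by gene identifier. The named genes were all 7 members, pathway genes past 2-fold, the 3 genes most like each member and the leading genes of clusters. The genes most like *Igfbp4* and some marker values are not reported here. *Igf2*, also of the pathway list, was named after its values were seen. The members and lists were chosen with earlier results of these data known. Alternatives numbered 17, of which 2 were chosen after seeing the data.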

Additional observations from a re-analysis of the deposited data

Results flagged for a closer look

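*Igfbp2* and *Igfbp7* passed 2-fold in opposite directions in different lineages under the same comparison. The difference between lineages was not tested, as each group has 1 library.

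For the T1 comparison (Enl-T1 to Enl-WT), the relative log2 value of *Igfbp2* was 1.05 in nephron and 2.56 in stroma but -1.30 in ureteric epithelium. Over 16 processing settings the nephron value fell under 2-fold in 7 and the ureteric value in 2.

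For the same comparison, *Igfbp7* was at -3.06 in nephron, 1.27 in ureteric epithelium and 2.31 in endothelium. For the TDI comparison (Enl-T1 TDI-11055 to Enl-T1), which shares the Enl-T1 library, the values of *Igfbp7* were 1.25, -1.57 and -2.56 in the same lineages. The ureteric values fell under 2-fold in 4 and 1 of the 16 settings, for the T1 and TDI comparisons.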

How the results depend on the processing

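No paired analysis was possible because each group has 1 library. At a fold of 1.5 in place of 2, the members past the fold numbered 15 for the T1 comparison and 13 for the TDI comparison, against 8 and 7. Under the other alternatives they numbered 6 to 9 and 5 to 10, and the genes with 1 highest lineage in all libraries numbered 3, or 4 with subclusters weighted alike. Shares of all genes past the fold are given above for 2-fold in the main setting only, so the counts under other settings just describe the list. No ratio past the fold changed sign. Without centring, 2 of 9 ratios past the fold for the T1 comparison were higher, against 4 of 8 with it, and 3 of 7 with centring within 10 groups of like exonic length. In male cells alone 6 of 9 were higher, and in female cells alone also 6 of 9. Over 16 settings, those that stayed past the fold were *Igfbp7* in nephron (-4.24 to -1.65 and, with TDI-11055, 1.08 to 2.09) and endothelium (1.06 to 2.74 and -3.12 to -1.40), stromal *Igfbp2* (2.23 to 2.66) and *Igfbp5* (-2.25 to -1.18) and, with TDI-11055, ureteric *Igfbp2* (1.46 to 2.36). Those that fell under it in some settings were nephron *Igfbp2* (7 settings, 0.39 to 1.32), ureteric *Igfbp2* (2, -1.78 to -0.72), ureteric *Igfbp7* (4, 0.43 to 1.84) and endothelial *Igfbp3* (2, -2.41 to -0.94). With TDI-11055 they were stromal *Igfbp3* (1, 0.76 to 1.48), ureteric *Igfbp4* (4, 0.57 to 1.36), ureteric *Igfbp7* (1, -1.63 to -0.58) and endothelial *Igfbp5* (1, -3.86 to -0.42). Of ratios under the fold, endothelial *Igf1* passed it in male cells alone (1.12 and, with TDI-11055, -1.54) and, with TDI-11055, after thinning (-1.13), with Scrublet-marked barcodes removed (-1.02) and with CPM scaled without mitochondrial, ribosomal protein and haemoglobin genes (-1.05), and endothelial *Igf1r* with TDI-11055 in female cells alone (-1.17) and after thinning (-1.33). Stromal *Igf1* with TDI-11055 passed it in female cells alone (-1.54). Binding proteins also crossed it for the T1 comparison, among them nephron *Igfbp5* with centring within groups of like exonic length (1.11). Without centring, *Igfbp4* passed it in nephron (-1.02) and ureteric epithelium (-1.05). The causes were not tested.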
